A study of Mus musculus with 33 samples.

Results

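The 10 genes described here carry or read the Notch signal in P19 cells: the ligands Dll1, Dll3 and Jag1, the receptors Notch1, Notch2 and Notch3, the receptor-modifying enzyme Lfng, and the Hes factors Hes1, Hes5 and Hes6. They were picked by name as genes of the pathway and by no rule on their measured levels, but with earlier results of these data known. All 10 were among the 14717 genes of the deposited table, and all 10 passed the filter on low values, which kept every gene. P19 is a mouse embryonal carcinoma line whose cells resemble those of the early embryo. The RNA libraries number 15, with 3 in each of 5 groups. D0 is undifferentiated P19. D3RA and D6RA are P19 at days 3 and 6 of differentiation with 1 µM all-trans retinoic acid (RA), and D3DMSO and D6DMSO are P19 at the same days with 1% dimethyl sulfoxide (DMSO), each after 2 days as embryoid bodies in bacteriological dishes and then a return to maintenance medium in flasks. RA is the usual route of this line to neurons and DMSO its usual route to mesoderm and muscle, so DMSO is itself an inducer and not a neutral vehicle. All groups come from a single line kept in medium with charcoal-stripped serum, with no genetic change named in the labels. The replicates are called biological in the design text, with no word on separate cultures, so p-values measure the spread between these libraries, which may be technical.

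In Notch signalling, a ligand on one cell binds a receptor on its neighbour, the receptor is cut by ADAM and gamma-secretase proteases, and its intracellular part enters the nucleus and joins the DNA-binding protein RBPJ to switch on targets such as Hes1 and Hes5. In the neural tube, new neurons display Dll1 while neighbouring progenitors keep Hes1 and Hes5, repressors that hold back neuronal genes. In the presomitic mesoderm, Dll1, Dll3, Lfng and Hes genes take part in the oscillator that spaces the somites.

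Library totals were 3.55 to 9.88 M counts in D0, D3RA and D3DMSO, against 38.2 to 49.6 M in D6RA and D6DMSO. The mitochondrial genes took 41.6 to 55.8% of the counts in the day 6 libraries and 0% in the others, so day 6 and the way its libraries were made or counted cannot be told apart. Levels are given in CPM, counts scaled to a common library size, and 1 count equals 0.0313 to 0.457 CPM depending on the library. Within D3RA and D3DMSO, replicate 1 stands apart from replicates 2 and 3: Lars2, Gm15564, ENSMUSG00000045999 and ENSMUSG00000093077, named after their values were seen, took 1.97% and 3.09% of its non-mitochondrial counts, against 24.0 to 45.7% in the other 4 libraries of those groups. Leaving out D3RA replicate 1 ended 1 call among the 10 genes, that of Notch3 for a different treatment effect at day 6 than at day 3 (adjusted p = 0.0985, limma). Leaving out D3DMSO replicate 1 ended 2, Notch3 in D3DMSO over D0 (adjusted p = 0.0929) and Hes5 in D6DMSO over D3DMSO (adjusted p = 0.113). D0 was not even either, with 23.2% for the same genes in replicate 2, against 9.15% and 8.86% in replicates 1 and 3. Leaving out D0 replicate 2 ended the call of Hes6 in D3DMSO over D0 (adjusted p = 0.0503, limma).

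The ligand genes split by treatment and day. Dll1 and Dll3, which encode the Delta-like ligands, were raised with both treatments at day 3 and stayed high at day 6 with RA alone, while Jag1, which encodes the ligand Jagged1, was lowest in D6RA. Dll1 (ENSMUSG00000014773) stood at 4.92, 6.13 and 6.81 CPM in D0, at 61.2, 58.6 and 73.1 CPM in D3RA and at 271, 284 and 282 CPM in D6RA. On the DMSO route it stood at 111, 230 and 166 CPM in D3DMSO and at 10.4, 8.61 and 9.54 CPM in D6DMSO. No library of any group overlapped with one of another, and the order of the means was D6RA, D3DMSO, D3RA, D6DMSO and D0. Dll1 rose in D3RA over D0 by a log2 fold change of 3.43 ± 0.19 (SE; adjusted p = 8.88e-11 by limma, with the Benjamini-Hochberg method applied to all genes, as throughout). It rose by 4.76 ± 0.19 in D3DMSO over D0 (adjusted p = 5.32e-12), and was lower in D3RA than in D3DMSO (-1.34 ± 0.19, adjusted p = 9.98e-06). At day 6 the difference ran the other way, with D6RA over D6DMSO at 4.88 ± 0.19 (adjusted p = 6.48e-13). In bulk RNA, more cells that express a gene and more RNA per cell cannot be told apart, here or in any value below.

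Dll3 (ENSMUSG00000003436), a divergent Delta that stays mostly inside the cell and does not activate Notch on neighbours, was highest in D3DMSO. It stood at 4.31, 3.46 and 2.93 CPM in D0, at 11.4, 11.7 and 7.76 CPM in D3RA and at 36.3, 44.0 and 41.4 CPM in D6RA. With DMSO it stood at 70.2, 94.6 and 82.9 CPM in D3DMSO and at 5.66, 5.96 and 6.00 CPM in D6DMSO. The libraries of neighbouring groups in the order D3DMSO, D6RA, D3RA, D6DMSO and D0 did not overlap, so that Dll1 and Dll3 differ in which group leads. Dll3 was lower in D3RA than in D3DMSO by a log2 fold change of -2.996 ± 0.17 (adjusted p = 1.42e-10) and higher in D6RA than in D6DMSO by 2.78 ± 0.17 (adjusted p = 2.12e-10). Over D0 it rose by 1.52 ± 0.17 in D3RA (adjusted p = 4.65e-07) and by 4.52 ± 0.17 in D3DMSO (adjusted p = 3.00e-12).

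Jag1 (ENSMUSG00000027276) stood at 29.1, 24.7 and 28.9 CPM in D0, at 34.6, 26.1 and 35.6 CPM in D3RA and at 18.2, 17.4 and 16.6 CPM in D6RA. In D3DMSO it stood at 46.5, 63.4 and 59.3 CPM and in D6DMSO at 55.6, 54.3 and 60.7 CPM. The D6DMSO and D3DMSO libraries overlapped, as did those of D3RA and D0, while D6RA lay below all others. Jag1 was lower in D3RA than in D3DMSO (log2 -0.81 ± 0.13, adjusted p = 3.35e-05) and lower in D6RA than in D6DMSO (-1.71 ± 0.13, adjusted p = 3.32e-09). D3RA and D0 were not told apart (0.21 ± 0.13, adjusted p = 0.147; lowest 0.0161 and highest 0.419 across 16 alternatives), and without D3RA replicate 2 the gene was called higher (adjusted p = 0.0161).

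**Figure D1:**
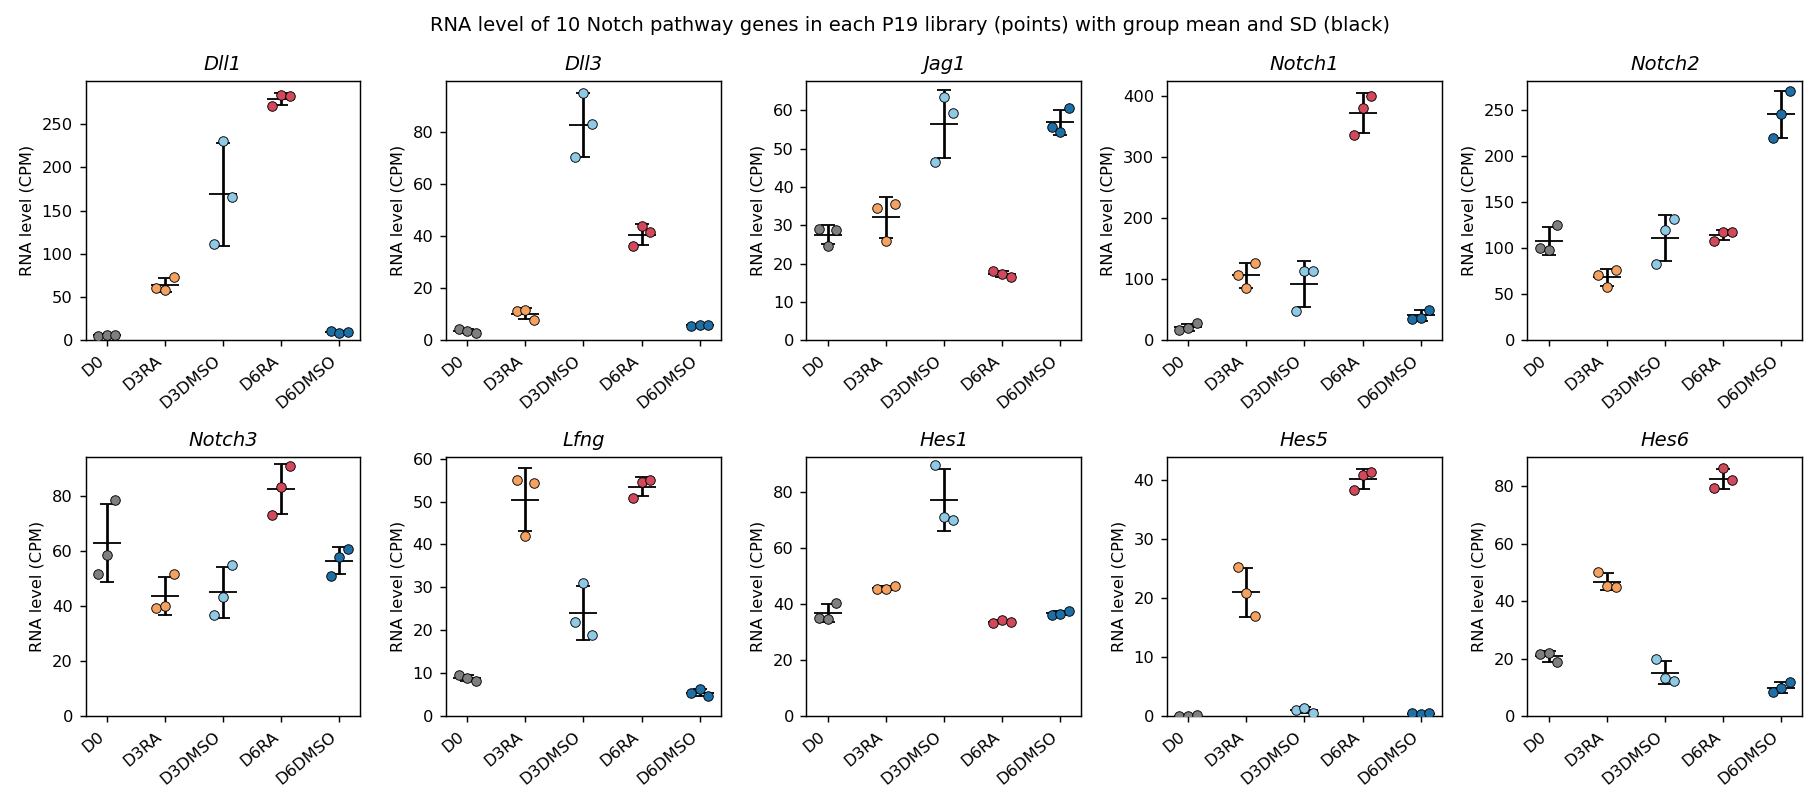
RNA level in CPM (linear axis from 0) of the 10 Notch genes in each library, by group in order of day with RA left of DMSO. Points are libraries and black marks the mean and SD of 3. Dll1, Notch1, Hes5 and Hes6 have their highest points in D6RA, Dll3 and Hes1 in D3DMSO, and Notch2 in D6DMSO.

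The 3 receptor genes each had a course of their own. Notch1 rose with both treatments and was highest in D6RA, Notch2 was highest in D6DMSO, and Notch3 stayed within 1 log2 unit in all 6 comparisons. Notch1 (ENSMUSG00000026923) stood at 16.4, 19.7 and 28.4 CPM in D0, at 108, 85.3 and 126 CPM in D3RA and at 336, 380 and 399 CPM in D6RA. On the DMSO route it stood at 48.9, 114 and 113 CPM in D3DMSO and at 34.9, 37.3 and 50.6 CPM in D6DMSO. D6RA lay above every other library and D0 below every other, while D3RA overlapped with D3DMSO and D3DMSO with D6DMSO. The overlap with D6DMSO came from D3DMSO replicate 1, the library with 3.09% for the 4 abundant genes above, against 32.8% and 24.0% in D3DMSO replicates 2 and 3. The part of that share in the result was not tested.

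Notch1 rose over D0 by a log2 fold change of 2.33 ± 0.27 in D3RA (adjusted p = 7.48e-07) and by 2.03 ± 0.27 in D3DMSO (adjusted p = 6.71e-06). D3RA and D3DMSO were not told apart (0.29 ± 0.27, adjusted p = 0.353). Without D3DMSO replicate 1 that value was -0.11 (adjusted p = 0.649). At day 6, Notch1 was 9.18-fold higher in D6RA than in D6DMSO (log2 3.20 ± 0.27, adjusted p = 1.36e-08). From day 3 to day 6 it rose with RA, by 1.82 ± 0.27 in D6RA over D3RA (adjusted p = 1.34e-05), and fell with DMSO, at -1.09 ± 0.27 in D6DMSO over D3DMSO (adjusted p = 0.00238).

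Notch2 (ENSMUSG00000027878) stood at 101, 97.7 and 125 CPM in D0, at 71.1, 58.0 and 75.8 CPM in D3RA and at 108, 118 and 117 CPM in D6RA. In D3DMSO it stood at 83.1, 120 and 131 CPM and in D6DMSO at 219, 246 and 270 CPM. D6DMSO was above and D3RA below all other groups, with D6RA, D3DMSO and D0 overlapping between them. Notch2 fell in D3RA against D0 (log2 -0.66 ± 0.15, adjusted p = 0.000733) and was lower in D3RA than in D3DMSO (-0.69 ± 0.15, adjusted p = 0.000624). It was also lower in D6RA than in D6DMSO, by -1.09 ± 0.15 (adjusted p = 4.29e-06). It rose in D6DMSO over D3DMSO by 1.16 ± 0.15 (adjusted p = 5.26e-06) and was not called in D3DMSO over D0 (0.03 ± 0.15, adjusted p = 0.885).

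Notch3 (ENSMUSG00000038146) ranged from 51.6 to 78.9 CPM in D0, from 39.2 to 51.6 CPM in D3RA and from 73.2 to 91.2 CPM in D6RA, and on the DMSO route from 36.7 to 55.1 CPM in D3DMSO and from 51.1 to 60.9 CPM in D6DMSO. Every pair of neighbours in the order D6RA, D0, D6DMSO, D3DMSO and D3RA overlapped. It was higher in D6RA than in D6DMSO by a log2 fold change of 0.54 ± 0.16 (adjusted p = 0.00682) and in D6RA than in D3RA by 0.92 ± 0.16 (adjusted p = 8.16e-05). The calls for lower levels in D3RA and in D3DMSO than in D0 (-0.52 ± 0.16 and -0.48 ± 0.16, adjusted p = 0.00892 and 0.0179) each ended without D0 replicate 3 (adjusted p = 0.0660 and 0.115). The D3DMSO call also ended without D3DMSO replicate 1 (adjusted p = 0.0929). Over the 16 alternatives, the adjusted p ran from 4.14e-05 to 0.0660 for D3RA and from 0.000138 to 0.115 for D3DMSO. In D6DMSO over D3DMSO it was not called (0.34 ± 0.16, adjusted p = 0.0807; lowest 0.00239, highest 0.323). It was called there without D3DMSO replicate 3 (adjusted p = 0.0164).

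Lfng (ENSMUSG00000029570) encodes Lunatic fringe, a glycosyltransferase that adds a sugar to the receptors and shifts which ligand they answer. It stood at 9.54, 8.96 and 8.13 CPM in D0, at 55.0, 42.0 and 54.4 CPM in D3RA and at 50.8, 54.5 and 55.1 CPM in D6RA. With DMSO it stood at 22.0, 31.0 and 18.9 CPM in D3DMSO and at 5.39, 6.34 and 4.64 CPM in D6DMSO. The RA groups overlapped with each other and lay above all other libraries, and D6DMSO lay below all others. Lfng rose in D3RA over D0 by a log2 fold change of 2.49 ± 0.16 (adjusted p = 8.07e-10) and in D3DMSO over D0 by 1.40 ± 0.16 (adjusted p = 1.89e-06). It was higher in D3RA than in D3DMSO by 1.10 ± 0.16 (adjusted p = 1.99e-05) and in D6RA than in D6DMSO by 3.30 ± 0.16 (adjusted p = 1.72e-11). It was lower in D6DMSO than in D3DMSO (-2.11 ± 0.16, adjusted p = 2.11e-08). With all libraries thinned to the smallest, the day 6 difference was 3.95 and the D6DMSO over D3DMSO difference -2.71, which are 1.57 and 1.52 times as large as folds.

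Among the Hes genes, Hes5 separated the treatments most sharply, Hes6 was higher with RA at both days, and Hes1 was highest in D3DMSO. Hes5 (ENSMUSG00000048001) encodes a repressor that Notch switches on in neural progenitors. It had 0, 0 and 2 counts in D0, or 0, 0 and 0.189 CPM, and stood at 25.2, 20.9 and 16.9 CPM in D3RA and at 38.2, 40.9 and 41.3 CPM in D6RA. On the DMSO route it stood at 1.10, 1.44 and 0.465 CPM in D3DMSO and at 0.482, 0.294 and 0.525 CPM in D6DMSO, from 18 and 30 counts over the 3 libraries. Every RA library lay above every other library, and D3DMSO and D6DMSO overlapped. Hes5 was 21.0-fold higher in D3RA than in D3DMSO (log2 4.39 ± 0.47, adjusted p = 4.80e-07) and 90.6-fold higher in D6RA than in D6DMSO (6.50 ± 0.47, adjusted p = 2.32e-09).

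Against the 2 counts of D0, the ratio of summed Hes5 counts was 311 in D3RA with a 95% counting interval of 85.4 to 2574, and 12.9 in D3DMSO with an interval of 3.10 to 115. These intervals cover counting error only. The fit called both (adjusted p = 3.34e-10 in D3RA and 1.51e-05 in D3DMSO). D6RA and D3RA libraries did not overlap, but the difference was not called (log2 0.94 ± 0.47, adjusted p = 0.0844). In a fit of the D6RA and D3RA libraries alone the adjusted p was 0.000283 (lowest 2.10e-05, highest 0.198 across 16 alternatives). The call for a lower level in D6DMSO than in D3DMSO (-1.17 ± 0.47, adjusted p = 0.0443) ended under 10 of 16 alternatives, among them each D6DMSO library and D3DMSO replicates 1 and 2 left out (adjusted p = 0.0526 to 0.175; lowest 0.00955 and highest 0.308 of all 16).

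Hes6 (ENSMUSG00000067071) encodes a Hes family member that counteracts Hes1 and favours neuronal differentiation. It stood at 21.7, 21.9 and 18.7 CPM in D0, at 50.2, 45.3 and 44.8 CPM in D3RA and at 79.2, 86.3 and 82.0 CPM in D6RA. In D3DMSO it stood at 19.9, 13.3 and 12.2 CPM and in D6DMSO at 8.29, 9.79 and 11.8 CPM. D6RA was above D3RA and D3RA above the rest without overlap, and of the other groups D0 and D3DMSO overlapped. Hes6 was higher in D3RA than in D3DMSO by a log2 fold change of 1.65 ± 0.16 (adjusted p = 9.42e-08) and in D6RA than in D6DMSO by 3.06 ± 0.16 (adjusted p = 2.25e-11). It rose in D3RA over D0 by 1.17 ± 0.16 (adjusted p = 3.98e-06). The lower level in D3DMSO than in D0 (-0.48 ± 0.16, adjusted p = 0.0143) lost its call when D0 replicate 2 was left out (adjusted p = 0.0503), likewise D3DMSO replicate 2 (0.0609) and replicate 3 (0.0789), and with thinned libraries (0.304). The lowest of the 16 alternatives was 0.000283.

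Hes1 (ENSMUSG00000022528), a repressor that Notch controls in many tissues, stood at 35.1, 34.8 and 40.5 CPM in D0, at 45.4, 45.3 and 46.6 CPM in D3RA and at 33.3, 34.3 and 33.6 CPM in D6RA. With DMSO it stood at 89.8, 71.0 and 70.2 CPM in D3DMSO and at 36.3, 36.4 and 37.5 CPM in D6DMSO. D3DMSO lay above all other libraries, and D0 overlapped with D6DMSO. Hes1 rose in D3RA over D0 by a log2 fold change of 0.32 ± 0.09 (adjusted p = 0.00493) and in D3DMSO over D0 by 1.06 ± 0.09 (adjusted p = 6.18e-08). It was lower in D3RA than in D3DMSO (-0.74 ± 0.09, adjusted p = 2.47e-06). D6RA and D6DMSO did not overlap but were not called apart (-0.12 ± 0.09, adjusted p = 0.249; lowest 0.0250, highest 0.397), and quantile normalization gave the 0.0250.

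The start regions of these genes were read from RefSeq promoter windows of build GRCm38.p6, which run from 250 bases before to 50 after the start of transcription. Such windows were found for 9 of the 10 genes, 11 windows in all, with none for Hes1. They were searched on both strands for GTGGGAA, the sequence that RBPJ binds, and for CACNAG, the N-box that Hes repressors bind. GTGGGAA was present in 6.38% of all 32851 windows and in 2 of these 11, those of Hes5 and Lfng. CACNAG was present in 42.5% of all windows and in 6 of the 11. The windows of Hes5 and Lfng are shown because they hold GTGGGAA, and 1 window of Hes6, a gene also higher with RA, because it does not. They are printed 5′ to 3′ on the strand of the gene, with GTGGGAA or its reverse complement in capitals. The Hes5 window is chr4:154960673-154960972 on the plus strand, the Lfng window chr5:140607091-140607390 on the plus strand and the Hes6 window chr1:91413173-91413472 on the minus strand.
Hes5: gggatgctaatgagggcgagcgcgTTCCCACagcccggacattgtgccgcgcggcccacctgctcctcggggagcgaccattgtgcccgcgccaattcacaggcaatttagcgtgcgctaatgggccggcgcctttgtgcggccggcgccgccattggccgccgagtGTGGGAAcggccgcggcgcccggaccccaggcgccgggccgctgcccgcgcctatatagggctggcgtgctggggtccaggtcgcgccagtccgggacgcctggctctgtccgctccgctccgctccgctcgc
Lfng: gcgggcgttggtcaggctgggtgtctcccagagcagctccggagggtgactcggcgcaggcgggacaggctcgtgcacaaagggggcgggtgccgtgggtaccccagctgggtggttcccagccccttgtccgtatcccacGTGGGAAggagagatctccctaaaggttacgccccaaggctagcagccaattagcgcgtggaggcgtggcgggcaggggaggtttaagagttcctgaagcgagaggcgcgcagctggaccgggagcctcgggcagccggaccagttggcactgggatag
Hes6: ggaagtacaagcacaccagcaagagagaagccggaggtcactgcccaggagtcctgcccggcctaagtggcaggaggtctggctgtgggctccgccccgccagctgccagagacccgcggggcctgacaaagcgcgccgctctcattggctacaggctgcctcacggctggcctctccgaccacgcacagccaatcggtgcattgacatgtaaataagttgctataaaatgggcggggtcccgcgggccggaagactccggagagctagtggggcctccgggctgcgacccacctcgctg
In Hes5 the matches begin 226 and 83 bases before the start, the one farther away on the minus strand, and in Lfng the match begins 109 bases before it. No match of one motif overlapped with a match of the other in these windows. A match of letters is a description of the sequence and not a bound site, and a window without one says nothing of RBPJ.

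The comparison of treatments at the same day asks how the neural and mesodermal routes differ. At day 3, 3 of the 10 genes (Lfng, Hes5 and Hes6) had a higher call in D3RA against D3DMSO and 5 a lower one (Dll1, Dll3, Jag1, Notch2 and Hes1). At that day 62.1% of all genes were called, 30.7% higher and 31.4% lower. Called and at least 2-fold apart were 3 higher and 2 lower, against 11.9% and 12.9% of all genes, or 24.7% in either direction. The libraries of D3RA and D3DMSO did not overlap for 8 of the 10, against 58.4% of all genes. The median log2 fold change was -0.36 over the 10 and -0.005 over all genes. At day 6, 7 were higher in D6RA than in D6DMSO (Dll1, Dll3, Notch1, Notch3, Lfng, Hes5 and Hes6) and 2 lower (Jag1 and Notch2), where 65.8% of all genes were called, 32.6% higher and 33.1% lower. At least 2-fold apart were 6 higher and 2 lower, against 14.9% and 14.8% of all genes, or 29.6% in either direction. The median was 2.92 against -0.015. The libraries did not overlap for 10 of the 10, against 80.2% of all genes.

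The difference between treatments was itself not the same at both days. The interaction subtracts the day 3 difference (RA minus DMSO) from the day 6 one, and was called for 9 of the 10 genes, 8 of them positive, while it was called for 48.5% of all genes, 25.4% positive and 23.1% negative. It was called and at least 1 log2 unit for 6 of the 10, against 22.9% of all genes, 12.3% positive and 10.6% negative. Dll1 had the highest value at 6.21 ± 0.26 (adjusted p = 1.89e-11), followed by Dll3 at 5.78 ± 0.24 (adjusted p = 1.27e-11), and these are the genes whose difference changed sign between the days with a call at each. Jag1 was negative (-0.90 ± 0.18, adjusted p = 0.000597), and Notch2 was not called (-0.41 ± 0.21, adjusted p = 0.112; lowest 0.0183, highest 0.302 across 22 alternatives). It was called under 5 of the 22, among them without D3DMSO replicate 3 (adjusted p = 0.0365) or D3RA replicate 2 (0.0499), with quantile normalization (0.0401) and with thinned libraries (0.0183). Since all day 6 libraries differ from the day 3 ones in depth and mitochondrial counts, the day and that difference cannot be told apart.

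**Figure D2:**
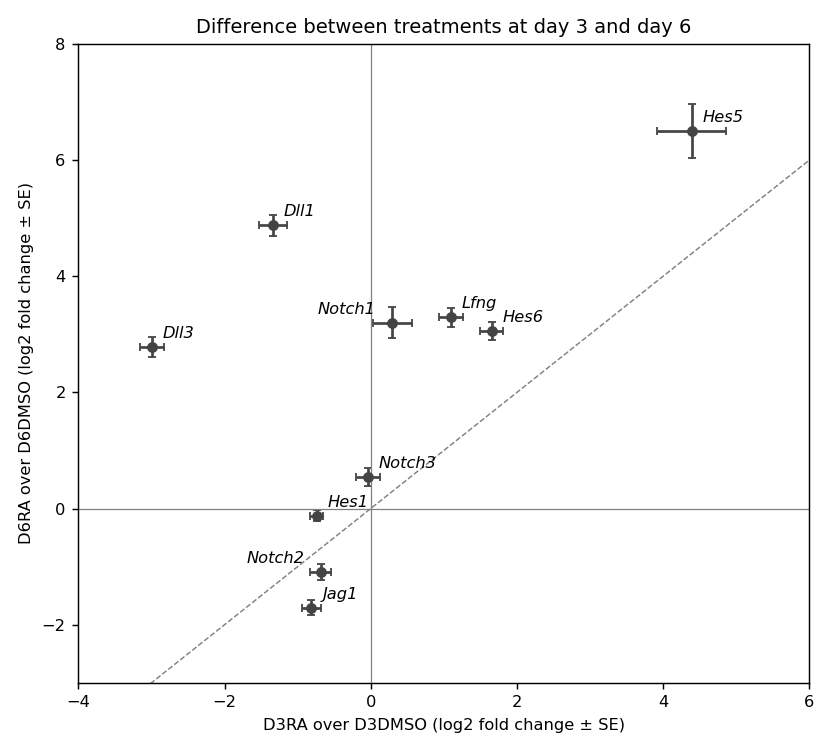
Log2 fold change of each Notch gene in D6RA over D6DMSO (vertical) against D3RA over D3DMSO (horizontal), with bars of 1 SE; the dashed line marks equal differences at both days. Dll1 and Dll3 lie left of 0 and above 0, with -1.34 and -2.996 at day 3 against 4.88 and 2.78 at day 6.

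The comparisons with D0 ask what differed after the first days of each route. The D0 cells had no days as embryoid bodies, and no untreated day 3 group is among the RNA libraries. Treatment, embryoid body culture and time therefore cannot be told apart in any comparison with D0. Both comparisons share the D0 libraries, so the values stand side by side and are not set against each other. In D3RA, 7 of the 10 genes were called higher than in D0 (Dll1, Dll3, Notch1, Lfng, Hes1, Hes5 and Hes6) and 2 lower (Notch2 and Notch3), where 68.9% of all genes were called, 35% higher and 33.9% lower. Of these, 6 rose and 0 fell at least 2-fold, against 16.2% and 14.3% of all genes, or 30.4% in either direction. The libraries did not overlap for 8 of the 10, against 68.4% of all genes, and the median log2 fold change was 1.35 against 0.008. In D3DMSO, 7 were called higher (Dll1, Dll3, Jag1, Notch1, Lfng, Hes1 and Hes5) and 2 lower (Notch3 and Hes6), where 56.1% of all genes were called, 28.2% higher and 27.8% lower. At least 2-fold, 7 rose and 0 fell, against 10.2% and 7.93% of all genes, or 18.1% in either direction. The libraries did not overlap for 7 of the 10, against 58.9% of all genes, and the median was 1.23 against 0.019. With Hes5 counted at either its fitted value or its count ratio, it lies above these medians.

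Between day 3 and day 6, more of the genes were called higher than lower with RA, and more lower than higher with DMSO. These comparisons share the day 3 and day 6 libraries with those between treatments. In D6RA over D3RA, 6 of the 10 were called higher (Dll1, Dll3, Notch1, Notch2, Notch3 and Hes6) and 2 lower (Jag1 and Hes1), where 69.3% of all genes were called, 37.2% higher and 32% lower. Quantile normalization turned that split over all genes, with 4636 higher and 5472 lower, against 5477 higher and 4716 lower as deposited. At least 2-fold, 3 rose and 0 fell, against 17.2% and 11.8% of all genes, or 29% in either direction, and the libraries did not overlap for 9 of the 10, against 74.2% of all genes. In D6DMSO over D3DMSO, 1 was called higher (Notch2) and 7 lower (Dll1, Dll3, Notch1, Lfng, Hes1, Hes5 and Hes6), where 56.4% of all genes were called, 28.3% higher and 28.1% lower. At least 2-fold, 1 rose and 6 fell, against 10.8% and 7.66% of all genes, or 18.4% in either direction, and the libraries did not overlap for 6 of the 10, against 63.2% of all genes. Dll1 had the largest fall of the 10 on the DMSO route (log2 -4.09 ± 0.19, adjusted p = 4.38e-11), and its libraries dropped to 8.61 to 10.4 CPM in D6DMSO. The medians were 0.87 on the RA route and -1.07 on the DMSO route, against 0.066 and 0.006 over all genes.

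**Figure D3:**
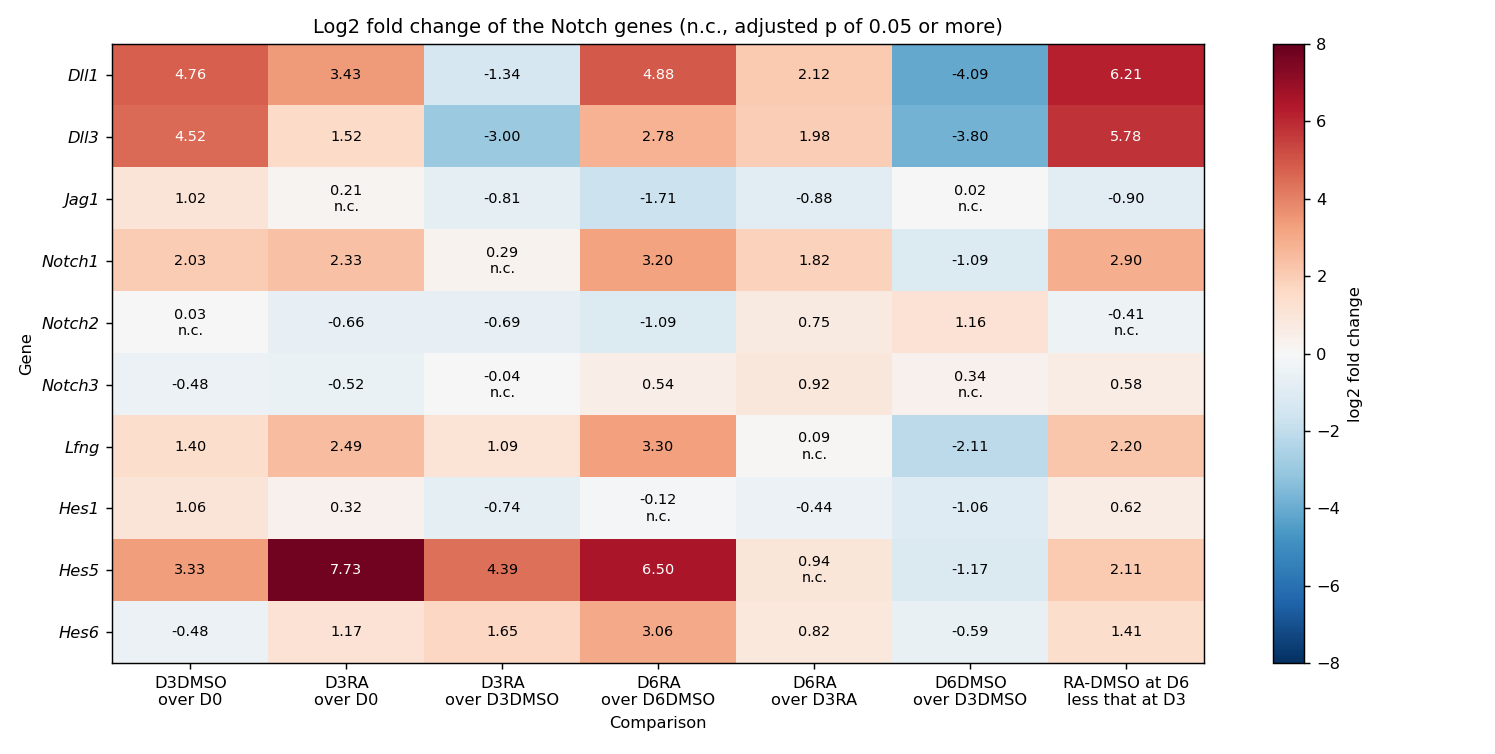
Log2 fold change (colour and number) of the 10 Notch genes, in rows, in each comparison and in the interaction, in columns; n.c. marks an adjusted p of 0.05 or more. The Dll1 and Dll3 rows are positive in D6RA over D6DMSO (4.88 and 2.78) and negative in D3RA over D3DMSO (-1.34 and -2.996), and the fitted Hes5 values over D0 rest on 2 counts in D0.

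The remainder of the pathway was followed with a list of 53 other genes, of which 45 were in the table. In D3RA over D0, 22 of the 45 were called higher and 9 lower, where 35% of all genes were higher and 33.9% lower. In D3DMSO over D0, 15 were higher and 6 lower, against 28.2% and 27.8% of all genes. In D3RA over D3DMSO, 16 were higher and 12 lower, against 30.7% and 31.4%. In D6RA over D6DMSO, 18 were higher and 11 lower, against 32.6% and 33.1%. Called and at least 2-fold apart between the treatments were 8 higher and 3 lower at day 3, against 11.9% and 12.9% of all genes. At day 6 these were 10 higher and 2 lower, against 14.9% and 14.8%. The median log2 fold change of the list was -0.045 at day 3 and 0.16 at day 6, against -0.005 and -0.015 over all genes. In D6RA over D3RA, 28 were higher and 8 lower, against 37.2% and 32% of all genes. In D6DMSO over D3DMSO, 22 were higher and 9 lower, against 28.3% and 28.1%.

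Of the other ligands, Dll4, the Delta ligand best known from vessels, had 2 counts in D0 and 3 in D3DMSO and stood at 8.13 ± 1.4 CPM in D3RA (SD, n = 3). The ratio of its summed counts was 53.4 in D3RA over D3DMSO, with a 95% counting interval of 17.9 to 262, and 115 in D3RA over D0, with an interval of 31.3 to 959. It stood at 2.97 ± 0.70 CPM in D6RA and 1.91 ± 0.52 CPM in D6DMSO, which were not called apart (adjusted p = 0.300). Dner, a transmembrane protein of neurons described as a Notch ligand, stood at 16.7 ± 1.8 CPM in D3RA against 4.39 ± 0.64 CPM in D3DMSO, and at 127 ± 2.7 CPM in D6RA and 0.275 ± 0.10 CPM in D6DMSO. Its difference at day 6 was the largest on the list (log2 8.80 ± 0.25, adjusted p = 1.22e-14). Dlk1, a ligand-like protein without the usual Notch-binding domain, was lower in D6RA, with 2.73 ± 0.44 CPM in D6RA and 19.6 ± 1.4 CPM in D6DMSO (adjusted p = 1.37e-07).

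Mfng, which encodes the enzyme Manic fringe, was called higher with RA at both days, as Lfng was. It stood at 10.4 ± 1.0 CPM in D3RA against 1.02 ± 0.53 CPM in D3DMSO, and at 23.1 ± 2.6 CPM in D6RA and 0.475 ± 0.20 CPM in D6DMSO (log2 3.40 ± 0.38 and 5.62 ± 0.38, adjusted p = 7.27e-07 and 8.69e-10). Neurl1a, a ubiquitin ligase that acts on ligands, stood at 3.50 ± 2.1 CPM in D3RA against 18.0 ± 1.5 CPM in D3DMSO (log2 -2.46 ± 0.27, adjusted p = 6.63e-07). Dtx4 and Dtx1 encode Deltex ubiquitin ligases. Dtx4 rose to 611 ± 45 CPM in D3RA, against 35.3 ± 1.5 CPM in D0, and stood at 13.3 ± 3.2 CPM in D3DMSO (D3RA over D3DMSO, log2 5.54 ± 0.13, adjusted p = 5.06e-15). Dtx1 fell to 1.56 ± 0.64 CPM in D3RA, against 25.7 ± 1.8 CPM in D0 (log2 -3.99 ± 0.28, adjusted p = 2.24e-09), and stood at 14.9 ± 0.77 CPM in D6RA and 1.48 ± 0.39 CPM in D6DMSO.

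Nrarp, a target of Notch that feeds back on the receptor, rose with both treatments at day 3. It stood at 5.19 ± 1.1 CPM in D0, 55.7 ± 5.6 CPM in D3RA and 88.1 ± 5.6 CPM in D6RA, and at 68.3 ± 8.1 CPM in D3DMSO and 12.02 ± 0.45 CPM in D6DMSO. Its rise over D0 was 3.43 ± 0.14 in D3RA and 3.72 ± 0.14 in D3DMSO on the log2 scale (adjusted p = 1.73e-12 and 2.52e-12). Hey1, another target on the list, did not share the day 6 pattern of Nrarp: the D6RA mean was 17.3 CPM and the D6DMSO mean 17.2 CPM. With RA, Hey1 fell from a day 3 mean of 26.3 CPM (log2 -0.61 ± 0.12, adjusted p = 0.000227, limma). Of the 3 targets on this list with values, 1 was called higher in D6RA than in D6DMSO and 2 were not called. Rbpj, the DNA-binding partner of all Notch receptors, was looked up after its values were seen. It stood at 22.5 ± 4.3 CPM in D3RA against 19.3 ± 3.4 CPM in D3DMSO (log2 0.22 ± 0.16, adjusted p = 0.242), and at 31.9 ± 0.90 CPM in D6RA and 24.7 ± 2.0 CPM in D6DMSO (0.37 ± 0.16, adjusted p = 0.0473).

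**Figure D4:**
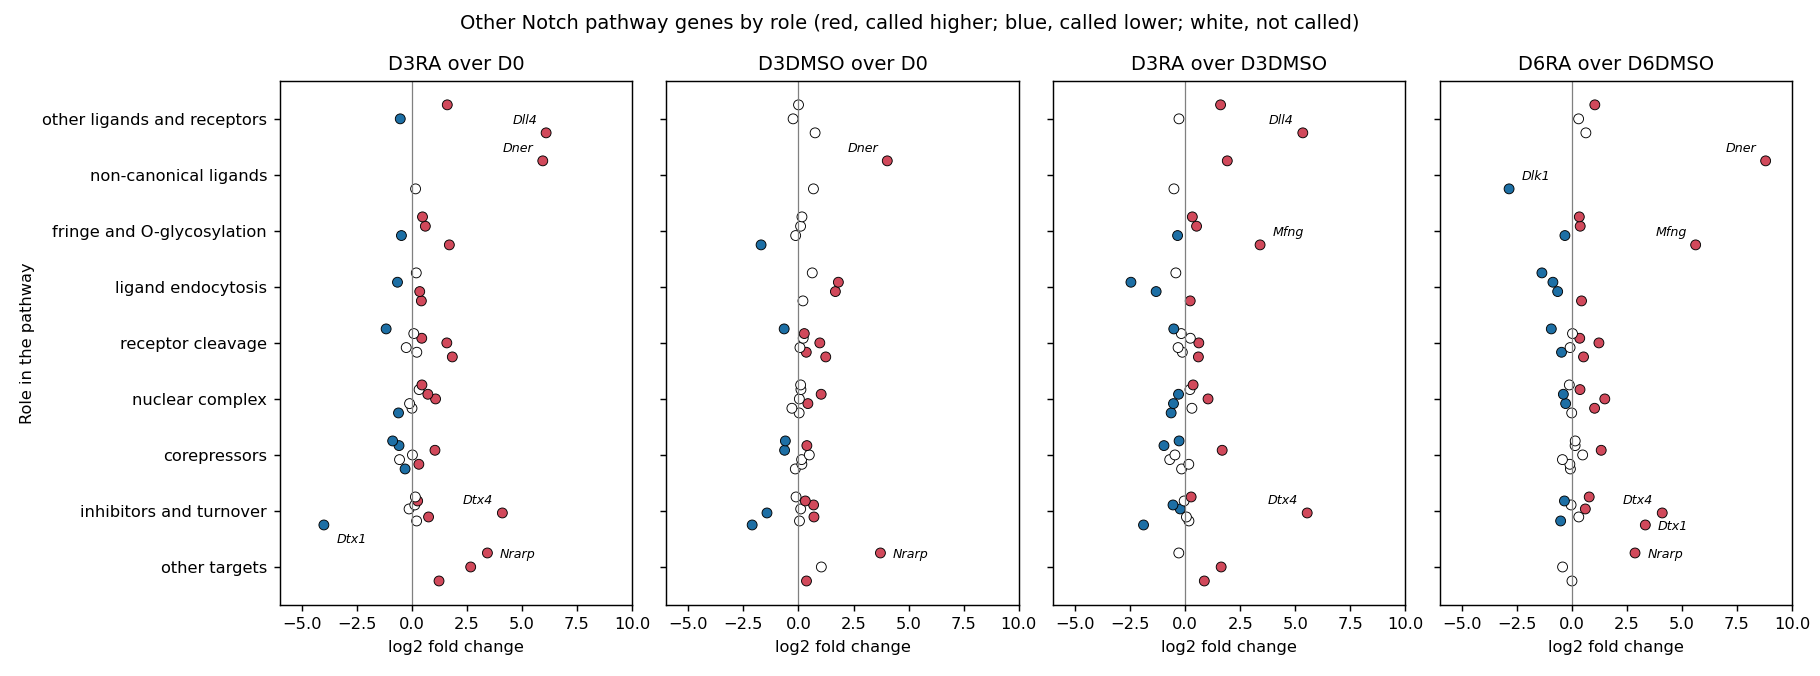
Log2 fold change (horizontal) of the 45 other Notch pathway genes by role (vertical) in 4 comparisons; red points were called higher, blue lower and white not called. Dll4, Dtx4 and Mfng stand out to the right in D3RA over D3DMSO, and Dner and Mfng in D6RA over D6DMSO.

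Markers of the cell types these cultures can hold also differed between the groups. Beside the day 3 rise of Dll1 and Dll3 with DMSO, all 5 measured markers of the primitive streak and presomitic mesoderm were called higher in D3DMSO than in D0. Their summed level was 1115 to 1290 CPM in D3DMSO, against 31.8 to 33.3 CPM in D0, with T at 874 CPM and Tbx6 at 92.4 CPM in D3DMSO. In D3RA the same sum was 2.91 to 4.11 CPM, with T at 0.278 CPM and Tbx6 at 0.777 CPM, while Dll1 stood at 58.6 to 73.1 CPM. In D6RA it was 2.66 to 3.03 CPM, with T at 0.115 CPM, and in D6DMSO 46.4 to 49.7 CPM. The part of these cells in the D3DMSO levels of Dll1, Dll3 and Hes1 was not tested.

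Beside Hes5, Hes6 and Lfng, which were higher with RA at both days, the summed level of the 14 markers of new neurons was 736 to 877 CPM in D3RA and 123 to 162 CPM in D3DMSO, and 2612 to 2738 CPM in D6RA and 38.7 to 45.1 CPM in D6DMSO. Of these, 12 were higher and 1 lower in D3RA than in D3DMSO, and 13 higher and 1 lower in D6RA than in D6DMSO. Dcx measured 107 CPM in D3RA against 0.465 CPM in D3DMSO, and Elavl3 43.0 CPM in D3RA against 2.87 CPM in D3DMSO. In D0 the sum of the new neuron markers was 296 to 333 CPM, above D3DMSO, with Stmn2 at 171 CPM and Tubb3 at 112 CPM. Against D0, 13 of the 14 were higher and 1, Stmn2, lower in D3RA, and 2 were higher and 6 lower in D3DMSO. All 7 measured markers of neural progenitors were higher with RA at both days, with sums of 974 to 1076 CPM in D3RA and 266 to 272 CPM in D3DMSO, and of 1334 to 1372 CPM in D6RA and 196 to 229 CPM in D6DMSO. Pax6 measured 149 CPM in D3RA against 0.769 CPM in D3DMSO, and 97.8 CPM in D6RA and 6.98 CPM in D6DMSO, and Sox1 was not analysed here. In D0 the sum of the progenitor markers was 397 to 473 CPM, also above D3DMSO. The part of either cell type in the levels of these Notch genes was not tested.

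Beside the D3RA level of Dll4, 8 of the 10 measured endothelial markers were higher and 1 lower in D3RA than in D3DMSO, and 7 lower in D6RA than in D6DMSO. Their sum was 203 to 265 CPM in D3RA and 58.7 to 87.4 CPM in D3DMSO, and 26.8 to 36.7 CPM in D6RA and 198 to 225 CPM in D6DMSO. The defining Cdh5 measured 35.4 CPM in D3RA against 1.72 CPM in D3DMSO, and 5.62 CPM in D6RA and 7.19 CPM in D6DMSO. Pecam1 measured 22.7 CPM in D3RA against 0.551 CPM in D3DMSO, and 4.79 CPM in D6RA and 3.59 CPM in D6DMSO. At day 6, Cdh5, Pecam1 and Tie1 were not called (adjusted p = 0.523, 0.289 and 0.674, limma). Most of the D6DMSO sum was Kdr, with 8.64 CPM in D6RA and 124 CPM in D6DMSO, and Flt1, with 2.21 CPM in D6RA and 42.6 CPM in D6DMSO. Beside the high Jag1 and Notch2 of D6DMSO, all 7 measured cardiac and smooth muscle markers were lower in D6RA than in D6DMSO, with sums of 5.33 to 7.29 CPM in D6RA and 519 to 626 CPM in D6DMSO. In D3DMSO, where Jag1 also stood at 46.5 to 63.4 CPM, the muscle sum was 62.0 to 74.4 CPM, against 110 to 161 CPM in D0. Acta2 measured 1.57 CPM in D6RA and 291 CPM in D6DMSO, and Tnnt2 0.0351 CPM in D6RA and 4.99 CPM in D6DMSO, while Tnnt2 had 0 counts in D3RA. Of the 6 measured pluripotency markers, 5 were lower and 1 higher in D3RA than in D3DMSO. They summed to 137 to 164 CPM in D3RA and 613 to 1167 CPM in D3DMSO, against 1798 to 2076 CPM in D0. The higher one was Sox2, also a neural progenitor marker, which made up most of the D3RA sum with 146.7 CPM, against 67.4 CPM in D3DMSO. Pou5f1 measured 1.79 CPM in D3RA and 555 CPM in D3DMSO, against 1317 CPM in D0, and Fgf4 had 0 counts in D3RA. The part of these cell types in the Notch gene levels was not tested.

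**Figure D5:**
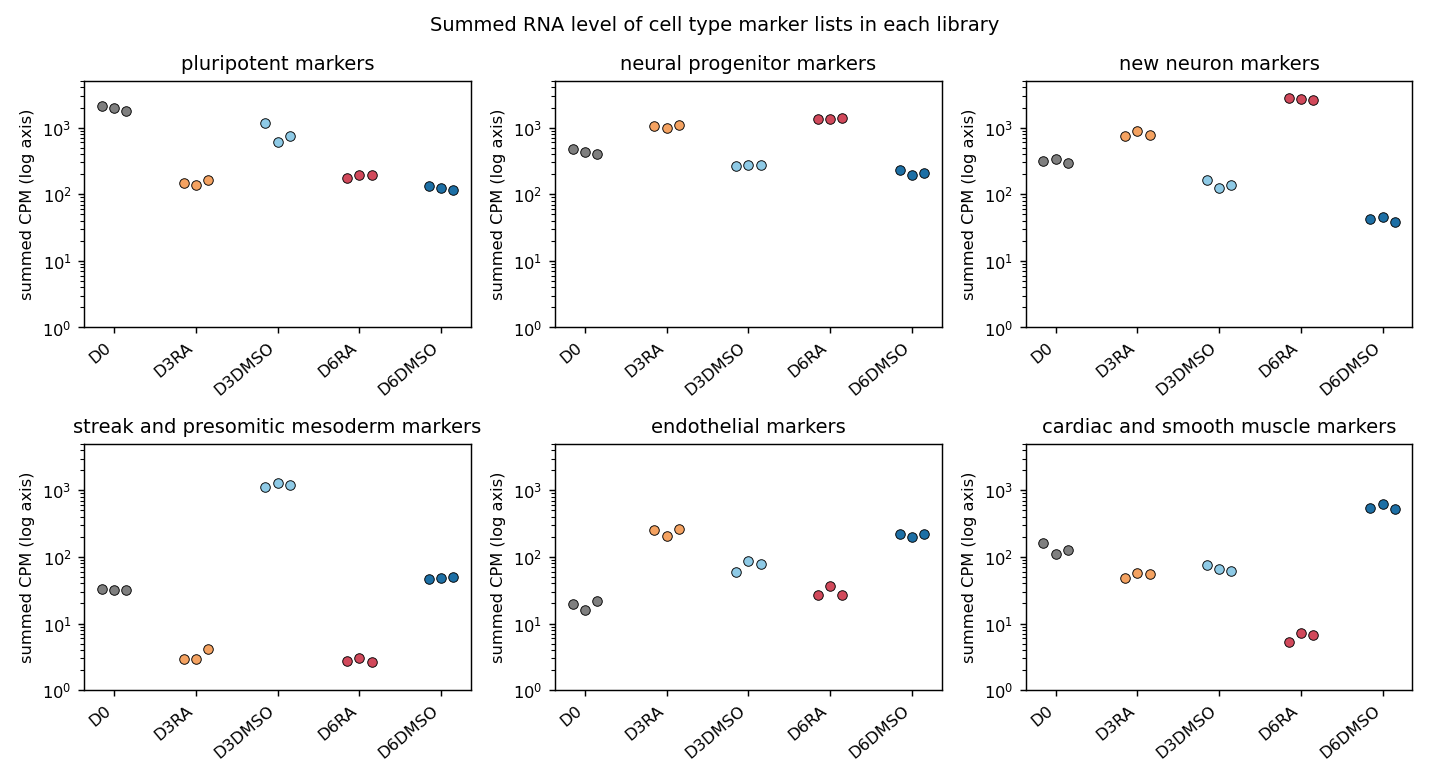
Summed RNA level in CPM (log axis) of 6 cell type marker lists in each library, by group. Streak and presomitic mesoderm markers peak in D3DMSO at 1115 to 1290 CPM, new neuron markers in D6RA at 2612 to 2738 CPM, and cardiac and smooth muscle markers in D6DMSO at 519 to 626 CPM.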

How the data were processed

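RNA of 15 P19 libraries was analysed, 3 in each of 5 groups taken from the sample titles; the 18 chromatin samples were not analysed here. Total RNA depleted of ribosomal RNA was made into stranded libraries and sequenced single end, per the labels' protocols. The deposited table holds log2 values made by the authors, 1 per gene and library. Genome mm9, the read trimmer Trimmomatic 0.32, the aligners STAR 2.6.0c and Bowtie2 2.2.9, featureCounts, limma, edgeR, FastQC 0.11.2 and SAMtools 0.1.19 are named, per the submitters' processing notes. Their roles in making the table are not given in the sources used here.

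After undoing the log2 and dividing by a constant per library, 100% of values lay within 0.05 of a whole number plus 0.5, and these whole numbers were taken as counts. CPM are counts over library sizes whose ratios follow the deposited constants and whose geometric mean equals that of the non-mitochondrial counts. Of 14717 Ensembl IDs, 14228 matched a symbol.

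All genes were fitted with limma 3.58.1 in R 4.3.3 on the deposited log2 values (a count of 0.5 added in every library, which understates changes of low genes and, at a few counts, can raise, lower or turn them where depths differ), with 1 coefficient per group, a variance trend and 10 residual degrees of freedom. The filter (1 CPM in 3 libraries) kept 14717 genes. Adjusted p-values are Benjamini-Hochberg over all genes, called under 0.05. Where a group held 1 to 3 counts, a ratio of summed counts with an exact 95% interval is given. The fitting code was tested on simulated counts.

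The 10 genes, the lists and the tests were chosen with earlier results of these data known. All 10 are named in each comparison; the rule for the other pathway genes took per comparison the called genes at both ends of the log2 fold changes, 3 at each, with 1 CPM or more in the higher group. Of those the rule took, Dll4, Dner, Dlk1, Mfng, Neurl1a, Dtx1, Dtx4, Nrarp and Hey1 are described. Listed genes without values (8 of the pathway list among them) were not analysed here. Pattern likeness was the root mean square difference of centred log2 values over 15 libraries. Alternatives were quantile and median-of-ratios scaling, no filter, 5 CPM in 3 libraries (12552 genes), no trend, voom weights, compared groups alone, thinning to 2189364 counts (1 draw), a replicate block, each library left out and, chosen after seeing the data, an added count in proportion to library size (2 on average).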

Additional observations from a re-analysis of the deposited data

Results flagged for a closer look

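The RA minus DMSO difference at day 6 differed from that at day 3, by the interaction term of limma (p adjusted over all genes by the Benjamini-Hochberg method), for 9 of the 10 Notch genes, where 48.5% of all genes were called. The log2 values were 6.21 for Dll1, 5.78 for Dll3, 2.90 for Notch1, 2.203 for Lfng, 2.11 for Hes5, 1.41 for Hes6, 0.62 for Hes1, 0.58 for Notch3 and -0.90 for Jag1. For Hes1 the treatment difference was -0.74 at day 3 and -0.12 at day 6, so the positive value is a smaller difference at day 6. For Jag1 it was -0.81 at day 3 and -1.71 at day 6. The Notch3 call (adjusted p = 0.0439) ended under 12 of 22 alternatives, with a range of 0.000695 to 0.120, among them each of D6RA replicates 2 and 3, D6DMSO replicates 1 and 2, D3RA replicates 1 and 2 and D3DMSO replicates 2 and 3 left out, and the Hes5 call (adjusted p = 0.0152) ended when libraries were thinned to the smallest (0.119, the highest of 22; the lowest was 0.00216). Day 6 libraries differ from day 3 libraries in depth and mitochondrial counts, and this cannot be told apart from the day.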

How the results depend on the processing

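The number of the 10 Notch genes called stayed within 1.5 times the main count under every alternative run. With at most 10 genes to call, that bound could fail only downward, and it does not show which genes were called. The number called was 8 to 9 in D3DMSO over D0, 8 to 10 in D3RA over D0, 8 in D3RA over D3DMSO, 9 to 10 in D6RA over D6DMSO, 8 to 9 in D6RA over D3RA, 7 to 9 in D6DMSO over D3DMSO and 8 to 10 in the interaction. Of 1180 gene values under an alternative, 1138 kept their side of the threshold, 30 lost a call, 12 gained one and 0 turned sign with a call. The 1138 include values that changed sign without a call in either fit. Notch1 in D3RA over D3DMSO is an example, at 0.29, and -0.11 without D3DMSO replicate 1. The replicate numbers share no stated day, and same-numbered libraries correlated above 0.1 in their deviations in 2 of 30 pairs (-0.15 to 0.21). With the replicate block the counts called were 9, 9, 8, 9, 8, 8 and 10 in the order above, and 3 of 70 gene calls changed: Notch3 in D6DMSO over D3DMSO was gained (adjusted p = 0.00239), Hes5 there was lost (0.0539) and the Notch2 interaction was gained (0.0428). Quantile normalization shifted the median of all genes by -0.14 in D6RA over D3RA and by -0.11 in D6RA over D6DMSO (log2), and turned the split of all genes called in D6RA over D3RA (45.9% of calls higher, against 53.7% as deposited), in D6DMSO over D3DMSO (44.7% against 50.3%), in both comparisons with D0 (48.5% against 50.3% with DMSO, 48.2% against 50.8% with RA) and in the interaction (46.1% against 52.4%). The fitted Hes5 change over D0 moved by over 1.5 times with the added count, with thinned libraries and without D0 replicate 3, which holds both D0 counts: it was 3.34 in D3DMSO, against 2.52, 2.21 and 3.97, and 7.73 in D3RA, against 6.83, 6.46 and 8.36. The thinned Lfng interaction was 2.88. Depth limits Hes5 and Dll4 in D0 and D3DMSO, at 2 to 18 counts over 3 libraries.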

Other observations

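For each Notch gene, the genes nearest to it in pattern were found by the root mean square difference of centred log2 values over the 15 libraries, which fall into 5 groups and share their depth and scaling; the median over the genes searched is given beside it. The nearest of the 10580 genes searched must lie below that median, so the median only sets a scale. Pid1 was nearest to Dll1 (0.44, median 2.26), followed by Kcnc1, a potassium channel gene, and Reln, which encodes reelin. Kcnc1 averaged 0.0999 CPM in D0 and 0.463 CPM in D6DMSO, low levels at which the added count of 0.5 weighs on the log2 values. Slc44a5 (0.35) and Wnt3, a Wnt ligand gene (0.47), were nearest to Dll3 (median 1.78). Wnt3 averaged 34.1 CPM in D3DMSO and 24.6 CPM in D6RA. Lama1, which encodes a laminin chain, was nearest to Notch1 (0.41, median 1.499), and St8sia4, a sialyltransferase gene, to Lfng (0.45, median 1.42).

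Slc1a2, which encodes a glutamate transporter, was nearest to Hes5 (0.84, median 3.37), with 41.3 CPM in D3RA against 4.05 CPM in D3DMSO, and 182 CPM in D6RA and 1.63 CPM in D6DMSO. Tbc1d9 was nearest to Hes6 (0.20, median 1.22) and Tor3a to Hes1 (0.17, median 0.64). Litaf was nearest to Jag1 (0.18, median 0.81), Cit, which encodes citron kinase, to Notch2 (0.18, median 0.79) and Rapgef1 to Notch3 (0.14, median 0.61).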
